A study of Mus musculus with 12 samples.

Results

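Small leucine-rich proteoglycans are secreted matrix proteins whose core is a curved run of leucine-rich repeats, most of them carrying chondroitin, dermatan or keratan sulfate chains. They bind collagen fibrils and set fibril width and spacing, and several also bind growth factors such as transforming growth factor β. In cartilage they coat the collagen network and link it to other matrix components. Here 10 genes of the family were looked up by symbol among the array probes that are not controls: Dcn, Bgn and Aspn (class I), Fmod, Lum, Prelp, Omd and Kera (class II), and Epyc and Ogn (class III). The rule found 9 of these genes, on 12 of 41174 probes, which carry 27962 gene names in all. Epyc was listed under its older name Dspg3, on 2 probes with the accession that the RefSeq gene table pairs with Epyc. It is described beside the others but is not among the 9 genes counted by the rule.

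RNA came from hypertrophic zones cut from tibial growth plate sections of 14 day old mice, and every sample, after amplification and Cy3 labelling, was read on a single-colour array. The 4 groups held 3 arrays each. Schmid mice were homozygous for Col10a1 p.Asn617Lys, a collagen X substitution, and had wildtype mice of the Schmid background as controls. Cog mice carried the ColXTgcog transgene, in which the Col10a1 promoter drives a misfolding thyroglobulin in hypertrophic chondrocytes, and had wildtype mice of the Cog background as controls. Cog mice with 1 and with 2 transgene alleles were not told apart. Per the study's methods, the 3 samples of a group came from 1 tibia each of 3 mice.

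Both probes for thyroglobulin were called higher in Cog, 207-fold and 239-fold, and neither was called in Schmid. The probe for Col10a1 does not read the Schmid substitution and checks nothing there. All 8 hypertrophic chondrocyte markers were well above background on all 12 arrays. The 3 Schmid arrays lay alone on their slide, and wildtype arrays 1 and 2 of the Schmid background on another. Wildtype array 3 of that background was on the slide of the 3 Cog arrays, scanned on the later of 2 days, and the last slide held the 3 Cog background wildtypes. Since mutant and matching wildtype arrays never shared a slide, effects of slide and of genotype cannot be told apart in either comparison. The share of spots well above background ran from 39.6 to 61.8%, and the median raw spot signal from 334 to 983 on the Schmid arrays and from 1151 to 2369 on the others.

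A gene was called where limma gave a Benjamini-Hochberg adjusted p of 0.05 or less over all 41174 probes together with a change of at least 2-fold. Levels are normalized log2 signals of 1 probe and are not compared between genes. Unless another probe is named, a gene is represented by its probe of highest mean signal. Of the 10 genes, 7 were well above background on all 12 arrays at that probe, and Aspn, Kera and Ogn were not.

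Fibromodulin fell in the Schmid hypertrophic zone, and it was the only 1 of the 9 genes to be called in either mutant. Among all genes 11.5% were called in Schmid, with 5.75% lower and 5.8% higher, so 1 of 9 is near the background share. Osteomodulin, PRELP and epiphycan had lower means in Schmid that did not pass the test, and decorin, lumican, biglycan, asporin, osteoglycin and keratocan lay closer to their wildtype. In Cog none of the 9 genes was called, where 2.73% of all genes were. Over the 10 genes the median log2 change was −0.16 in Schmid and −0.10 in Cog, against −0.09 and −0.003 over all genes, and 6 of 10 had a negative log2 change in each mutant, against 56.9% of all genes in Schmid and 50.4% in Cog.

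**Figure D1:**
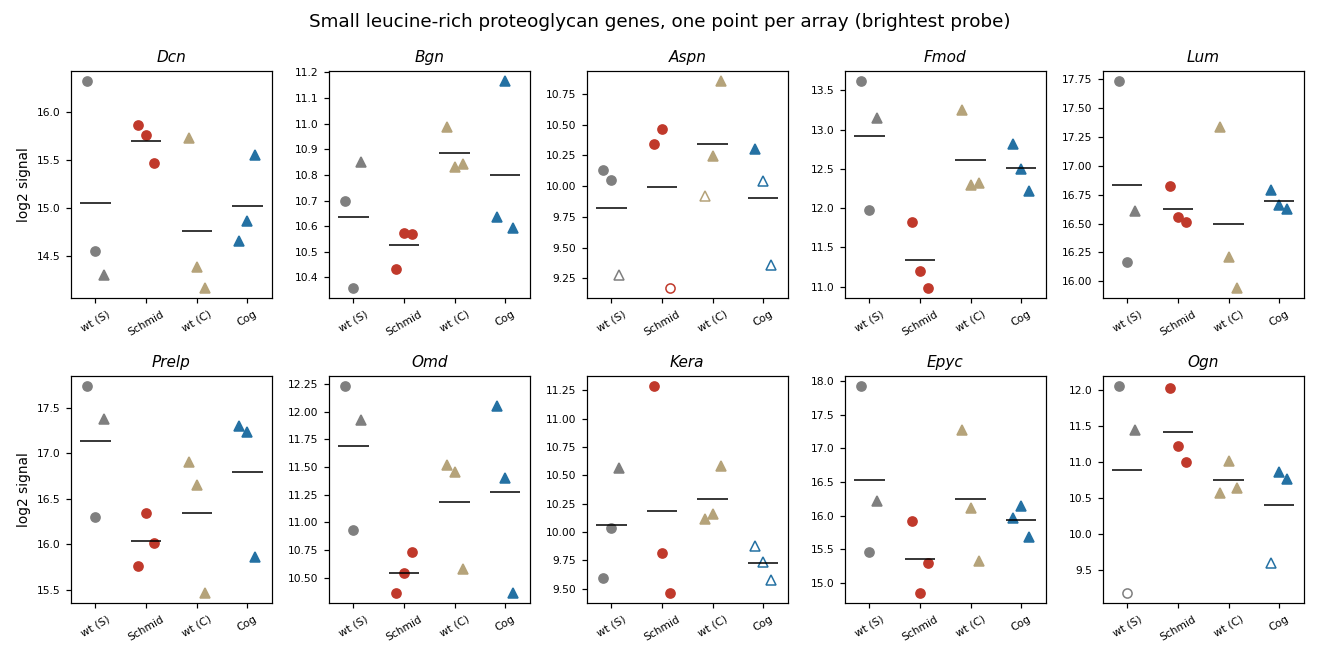
Normalized log2 signal (vertical axis of each panel, own scale) of the 10 genes in the 4 groups: wildtype of the Schmid background, wt (S), Schmid, wildtype of the Cog background, wt (C), and Cog. Each point is 1 array, circles were scanned on the first day and triangles on the second, open points were not well above background, and lines are group means. The 3 Schmid arrays lie below every wildtype array of their own background for Fmod and Omd, and wildtype array 1 of the Schmid background is the highest of its group for 8 of the 10 genes.

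Fibromodulin (Fmod) carries keratan sulfate and binds collagen I and II fibrils. Its log2 signal was 11.82, 11.20 and 10.99 on the Schmid arrays and 13.62, 11.98 and 13.15 on the wildtype arrays of the same background. All 3 Schmid arrays thus lay below the lowest wildtype array, by a narrow margin for Schmid array 1. The mean fell by 1.58 on the log2 scale (SE 0.41), a 2.99-fold lower signal, with an adjusted p of 0.0215 by limma. In Cog the values were 12.81, 12.50 and 12.22 against 13.24, 12.29 and 12.32 in wildtype. These groups overlapped, and the log2 change was −0.11 (95% interval −1.03 to 0.81, adjusted p = 0.911). The Schmid change minus the Cog change was −1.47 (SE 0.59) and was not called (adjusted p = 0.1125).

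The fibromodulin call was lost without Schmid array 2 (adjusted p = 0.0640), without Schmid array 3 (0.0731) and without wildtype array 3 (0.0674), which also leaves only arrays scanned on the first day. It was lost too when Schmid and its wildtype were fitted alone (0.0574), while the log2 change stayed between −2.05 and −1.23 in all 26 alternative settings. With the replicate number as a block, the difference between the mutants passed the test (−1.47, adjusted p = 0.0369).

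Osteomodulin (Omd) is an acidic member of mineralized tissue that binds hydroxyapatite. It gave 10.36, 10.54 and 10.73 in Schmid against 12.23, 10.93 and 11.92 in wildtype. The Schmid arrays did not overlap with wildtype, a pattern that 27.7% of all genes shared in this direction. Its log2 change of −1.15 (SE 0.45) did not pass the test (adjusted p = 0.0850). In Cog it gave 12.05, 11.40 and 10.37 against 11.52, 11.45 and 10.58, groups that overlapped fully (log2 change 0.09, 95% interval −0.90 to 1.08).

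PRELP (Prelp) has a basic, proline and arginine-rich end that binds heparan sulfate, and it usually carries few chains. It gave 15.76, 16.35 and 16.01 in Schmid against 17.74, 16.30 and 17.38 in wildtype. Schmid array 2 lay just above wildtype array 2, and the log2 change of −1.10 (SE 0.50) did not pass the test (adjusted p = 0.132). In Cog the change had the opposite sign, 0.46 (SE 0.50, adjusted p = 0.648). The Schmid change minus the Cog change was −1.56 (95% interval −3.14 to 0.02, adjusted p = 0.160), and that of Omd was −1.24 (−2.64 to 0.16, adjusted p = 0.203). No member gene was called for this difference, against 11.4% of all genes.

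Lumican (Lum), which spaces collagen fibrils in cornea and is also made in cartilage, had a small spread in both mutants. It gave 16.82, 16.55 and 16.51 in Schmid and 16.79, 16.66 and 16.63 in Cog. The wildtype arrays ran from 16.17 to 17.73 in the Schmid background and from 15.94 to 17.34 in the Cog background, so each mutant lay within the range of its wildtype. Its log2 change was −0.21 in Schmid (95% interval −1.11 to 0.70) and 0.20 in Cog (−0.71 to 1.10).

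Keratocan (Kera), best known from the cornea, was well above background on all 9 arrays of the other groups and on none of the 3 Cog arrays. Its Cog signals of 9.87, 9.73 and 9.58 lay below the wildtype signals of 10.12, 10.16 and 10.58, a pattern shared by 13.3% of all genes in Cog. Since the Cog values are only a bound, its mean signal was lower in Cog by at least 1.36-fold. The fitted log2 change had a 95% interval of −1.47 to 0.35 and did not pass the test (adjusted p = 0.474), so no decrease is established. In Schmid it gave 11.28, 9.82 and 9.46 against 9.59, 10.04 and 10.56, with 1 Schmid array above and 1 below all wildtype arrays (log2 change 0.13, 95% interval −0.79 to 1.04).

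**Figure D2:**
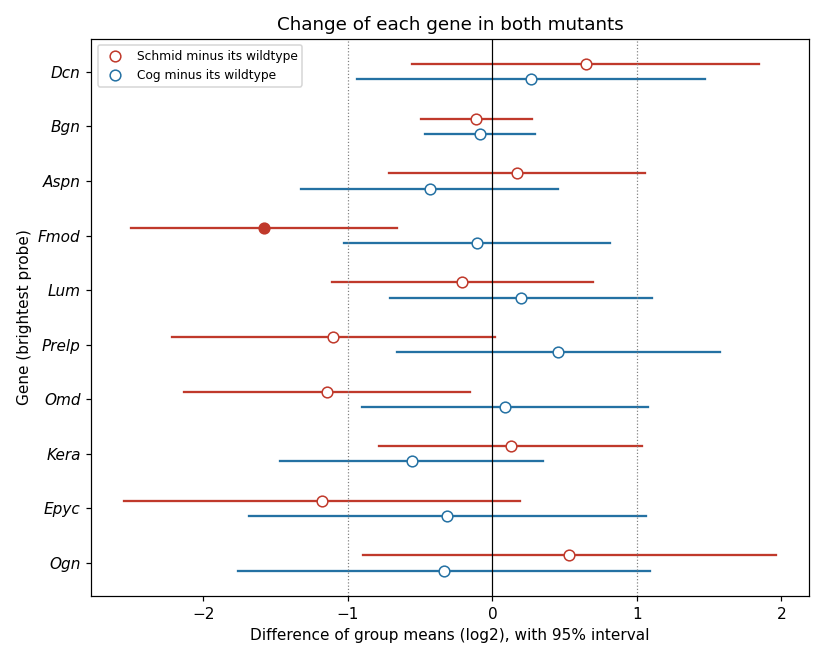
Difference between each mutant and its own wildtype in mean log2 signal (horizontal axis) for the 10 genes (vertical axis), with 95% intervals from limma. Filled points were called, open points were not, and dotted lines mark a 2-fold change. The Cog point of Kera rests on arrays not well above background. Only Fmod in Schmid is filled, and the Schmid intervals of Fmod and Omd lie wholly below 0.

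Sequence before the start of Fmod, Omd and Prelp is shown because these are the class II genes with the lowest Schmid means relative to wildtype. The runs are the 250 bases before each start from the RefSeq promoter table of build GRCm38.p6, in the direction of the gene, at chr1:134037004-134037253 (+ strand), chr13:49582212-49582461 (+ strand) and chr1:133921402-133921651 (− strand). Capitals mark matches to the motifs searched.
Fmod: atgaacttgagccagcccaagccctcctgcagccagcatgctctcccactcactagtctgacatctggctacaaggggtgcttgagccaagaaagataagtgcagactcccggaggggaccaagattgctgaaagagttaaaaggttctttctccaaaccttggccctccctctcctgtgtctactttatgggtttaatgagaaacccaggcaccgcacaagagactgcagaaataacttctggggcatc
Omd: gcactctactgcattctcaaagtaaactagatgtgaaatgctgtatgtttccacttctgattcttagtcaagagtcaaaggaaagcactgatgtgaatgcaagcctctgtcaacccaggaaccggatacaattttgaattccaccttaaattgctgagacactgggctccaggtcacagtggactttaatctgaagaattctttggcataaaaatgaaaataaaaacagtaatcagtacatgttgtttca
Prelp: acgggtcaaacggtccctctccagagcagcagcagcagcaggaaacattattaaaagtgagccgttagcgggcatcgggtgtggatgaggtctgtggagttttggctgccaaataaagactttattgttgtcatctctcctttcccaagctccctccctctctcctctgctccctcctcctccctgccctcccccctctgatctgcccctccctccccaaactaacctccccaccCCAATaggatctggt

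The table held entries for 8 of the 10 genes, with 2 starts for Epyc, so 9 promoters were searched on both strands for 5 motifs. The CCAAT box (CCAAT) was in 3 of the 9, those of Prelp, Kera and Aspn, and in 33.8% of the 32851 promoters in the table. The TATA box (TATAAA) was in Aspn and Ogn, and in 12.4% of all. A SOX9-type motif (ACAATGG) was in 1 Epyc promoter and in 3.02% of all, while the unfolded protein response element (TGACGTG, 1.65% of all) and the E-box (CACGTG, 6.02% of all) were in none of the 9. In Ogn the TATA box matched on both strands at overlapping positions, and no match overlapped with another motif. A match describes the letters in this window and not a site in use. Fmod and Prelp are neighbours on chromosome 1, with the leucine-rich gene Optc on the other side of Prelp. Aspn, Omd and Ogn stand side by side on chromosome 13, beside the related gene Ecm2, and Dcn, Lum, Kera and Epyc on chromosome 10. Members of the chromosome 13 cluster had log2 changes of different sign in Schmid (0.17 for Aspn, −1.15 for Omd and 0.53 for Ogn), and so did those of the chromosome 10 cluster.

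Decorin (Dcn), the founding member of the family, carries a dermatan or chondroitin sulfate chain and binds collagen fibrils and transforming growth factor β. It is measured by 2 probes, printed here because they behave differently. The NM_007833 probe matches the decorin mRNA at chr10:97080086-97080145 of build mm7 and the AK052759 probe a cDNA clone from kidney at chr10:97043200-97043259 (both + strand), 36.9 kb upstream.
Dcn NM_007833: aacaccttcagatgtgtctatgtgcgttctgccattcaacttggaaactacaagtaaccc
Dcn AK052759: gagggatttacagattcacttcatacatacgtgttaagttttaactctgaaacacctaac

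At the decorin mRNA probe the log2 signals were 15.87, 15.76 and 15.47 in Schmid and 16.33, 14.55 and 14.29 in wildtype. Wildtype array 1 was the highest of the 6 and the other two wildtype arrays the lowest. The log2 change was 0.64 (SE 0.54, adjusted p = 0.403). In Cog the arrays gave 14.66, 14.86 and 15.56 against 15.73, 14.38 and 14.16 in wildtype, again with wildtype array 1 on top, and the log2 change was 0.27 (95% interval −0.93 to 1.47).

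The AK052759 probe was well above background on the 3 Schmid arrays and on none of the other 9. It gave 10.51, 9.77 and 10.17 in Schmid, while the wildtype arrays of that background ran from 7.67 to 8.77. Against the limit that background sets in wildtype, the Schmid mean exceeded wildtype at this probe at least 1.53-fold. The adjusted p of 0.00355 by limma belongs to the fitted log2 change of 2.01, which takes the wildtype signals as read. It does not test the bound. At the call threshold 5.78% of all probes were called higher in Schmid. As the other 3 groups were not well above background at this probe, no difference between the mutants is given for it. The lower raw signal of the Schmid slide, given above, moves with this result at a dim probe, and its part in it was not tested. Across the 12 arrays the 2 Dcn probes correlated with r = 0.75.

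**Figure D3:**
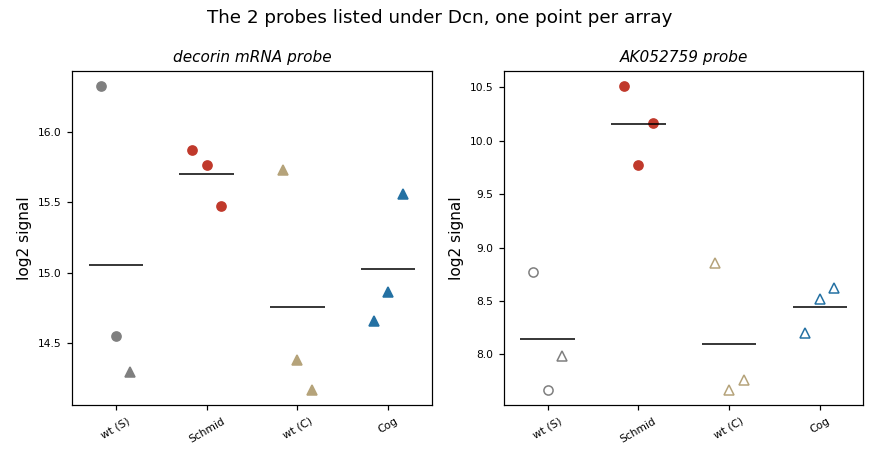
Log2 signal (vertical axis) of both probes listed under Dcn in the 4 groups, 1 point per array; circles and triangles are the first and second scan days, open points were not well above background, and lines are group means. At the AK052759 probe the 3 Schmid arrays are the only filled points, while at the decorin mRNA probe all 12 are filled and the groups overlap.

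Biglycan (Bgn), which carries 2 glycosaminoglycan chains, had little spread. It lay between 10.36 and 11.17 on all 12 arrays, and its log2 change was −0.11 in Schmid (95% interval −0.49 to 0.27) and −0.09 in Cog (−0.47 to 0.29), so both intervals lie inside a 2-fold change. Its second probe never rose well above background and gives no fold. Asporin (Aspn), a class I member with a stretch of aspartate residues and no chain, ran from 9.17 to 10.85 and was well above background on 7 of 12 arrays. Its log2 change was 0.17 in Schmid (95% interval −0.72 to 1.06) and −0.43 in Cog (−1.32 to 0.45).

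Epiphycan (Epyc) is the class III member named after epiphyseal cartilage. Its brighter probe gave 15.92, 14.85 and 15.29 in Schmid against 17.92, 15.45 and 16.22 in wildtype. Schmid array 1 lay above wildtype array 2, and the log2 change was −1.18 (SE 0.62, adjusted p = 0.183). The second probe gave 14.51, 13.67 and 13.98 against 16.92, 14.73 and 15.31, without overlap, and its log2 change of −1.60 (SE 0.53) lay just outside the threshold (adjusted p = 0.0530). With the replicate number as a block this probe passed the test (adjusted p = 0.0183). The probes moved together over the 12 arrays (r = 0.97). In Cog their changes were −0.31 (95% interval −1.68 to 1.06) and −0.35 (−1.54 to 0.84), and the differences between the mutants, −0.87 and −1.25, were not called (adjusted p = 0.5225 and 0.279). Osteoglycin (Ogn), the other class III member, ran from 9.18 to 12.06, with its lowest and highest value in the wildtype arrays of the Schmid background. Its log2 change was 0.53 in Schmid (95% interval −0.90 to 1.96) and −0.33 in Cog (−1.76 to 1.09).

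The second Prelp probe, in another stretch of the same transcript, was well above background on 3 Schmid arrays, on 1 wildtype array of that background, on 1 Cog array and on none of the Cog background wildtypes. Its Schmid values of 9.69, 9.67 and 9.65 overlapped with the wildtype arrays of the same background, the highest of which was at 9.69. Across the 12 arrays it went against the brighter probe (r = −0.45), so the lower Prelp mean in Schmid rests on the brighter probe alone.

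The wildtype groups were compared with each other as a measure of background. None of the 9 genes was called, against 0.554% of all genes, and limma's adjusted p was 0.533 for Prelp (log2 difference −0.80, Cog background minus Schmid background) and 0.627 for Aspn (0.52). Over the 10 genes the median SD was 0.78 in the wildtype of the Schmid background, 0.37 in Schmid, 0.53 in the wildtype of the Cog background and 0.39 in Cog. Array 1 was the highest of its group for 8 of 10 genes in the wildtype of the Schmid background and for 7 of 10 in that of the Cog background. It was also the highest for 6 of 10 in Schmid and for 6 of 10 in Cog. The share over all genes was not counted. Without wildtype array 1 of the Schmid background the fibromodulin change was −1.23, with an adjusted p of 0.0490.

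The members also varied together from array to array. Over all arrays the closest pair was Omd and Prelp, which lie on different chromosomes. Their log2 signals correlated with r = 0.94 over the 12 arrays and with r = 0.94 after the group means were removed, and each was the other's closest match among 10413 genes searched. After removal of group means the closest pair was Epyc and Lum (r = 0.96, and 0.83 over the 12 arrays), and after Omd and Prelp came Dcn and Lum (0.88 and 0.76), Fmod and Lum (0.87 and 0.57) and Epyc and Fmod (0.86 and 0.85). Points of 1 array share its RNA sample, slide and normalization, and these values are descriptions.

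**Figure D4:**
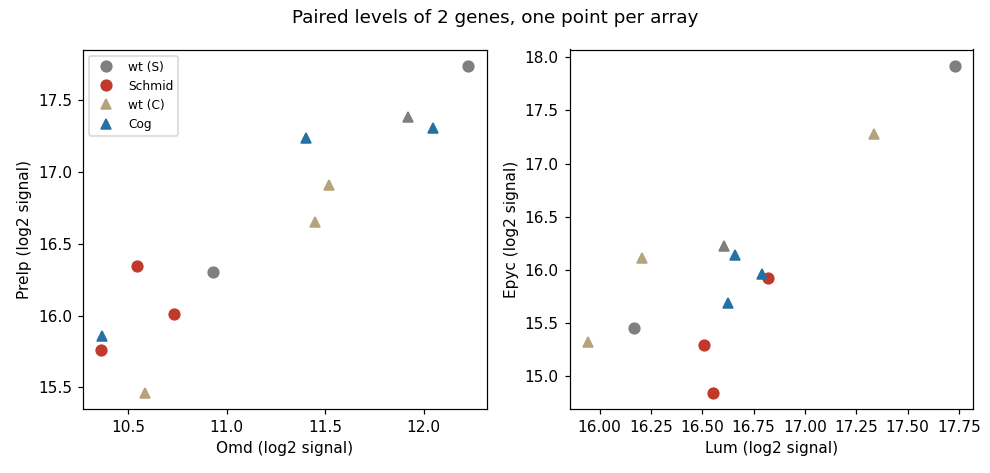
Log2 signal of Prelp against Omd (left) and of Epyc against Lum (right), 1 point per array in the colours of the 4 groups; circles and triangles are the first and second scan days. Omd and Prelp rise together over the 12 arrays (r = 0.94), though in Schmid the array highest in Prelp is not the one highest in Omd, and Epyc and Lum rise together with more scatter (r = 0.83).

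The genes most like each member over the 12 arrays were mostly outside the family. For Fmod they were Col27a1, a cartilage collagen (r = 0.94), Slc8a3 (0.94) and Crispld1 (0.93), and for Epyc the chondromodulin gene Lect1 (0.95), C1qtnf3 (0.95) and Itm2a (0.94). Dcn was most like Sdc4, a cell surface proteoglycan (0.96), Ankrd10 (0.94) and Atp2b1 (0.94), and Lum most like Ptma (0.91), St3gal6 (0.90) and an unnamed transcript (0.90). After Prelp, Omd was most like Cpa6 (0.90) and 1110017I16Rik, which is Ucma of upper cartilage zones (0.90), and after Omd, Prelp was most like Sort1 (0.87) and Cpa6 (0.85). Bgn was most like Atad4 (0.92), Sectm1 (0.90) and 2310008M10Rik (0.84).

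Of 78 genes in 6 lists of related proteins, enzymes and partners, 22 were called in Schmid, 17 lower and 5 higher, and 1 was called in Cog. Among all genes 11.5% were called in Schmid, 5.75% lower and 5.8% higher, and 2.73% in Cog. These shares also apply to the counts of single lists below, where 1 or 2 calls in a short list can be near them. Among all probes 55.2% of the Schmid calls were higher under quantile normalization and 42.6% with arrays scaled to the 75th percentile. The list of other leucine-rich matrix proteins had the lowest median of the 6 in Schmid, where 4 of 8 were called lower, none higher, and the median log2 change was −1.02. They were Chadl (−2.42, adjusted p = 7.77e-05), Chad, the cartilage protein chondroadherin (−1.94, adjusted p = 0.00123), Podnl1 (−1.82, adjusted p = 0.0217) and Tsku (−1.37, adjusted p = 0.000847). Podn and Ecm2 of this list never rose well above background. In Cog none of the 8 was called and the median was 0.05.

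Of the 22 genes that build or sulfate chondroitin and dermatan sulfate chains, 4 were called lower and 2 higher in Schmid, and none in Cog. The sulfotransferase Chst12 fell by 2.40 on the log2 scale (adjusted p = 0.00215), Xylt2, which adds the first sugar, fell by 1.69 (0.00196) and the sulfotransferase Chst7 fell by 1.60 (0.00111). Dse, the epimerase that turns chondroitin into dermatan sulfate, rose by 1.45 (0.0131), though it was well above background on only 1 wildtype array, as Chst7 was on only 1 Schmid array. Among 7 keratan sulfate genes only B4galt1, a galactosyltransferase, was called in Schmid (−1.55, adjusted p = 0.000454), all 7 had negative changes and the median was −0.33. None of the 7 was called in Cog, where 6 of them had negative changes and the median was −0.49.

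Among 16 collagens and matrix partners, Col1a1 fell by 1.23 on the log2 scale in Schmid (adjusted p = 0.0361) and Col5a1, a fibril-initiating collagen chain, rose by 1.31 (0.0497). With the replicate number as a block Col1a1 was no longer called (adjusted p = 0.0602). Col1a1 was called in 17 and Col5a1 in 9 of 26 alternative settings, and none of the 16 was called in Cog. Of 10 growth factors and receptors bound by the proteoglycans, Tgfb3 fell by 2.97 on the log2 scale in Schmid (adjusted p = 2.10e-05), Met, a decorin receptor, fell by 1.21 (0.000874) and Tgfb1 fell by 1.15 (0.0346), while Tlr2, a receptor for biglycan, rose by 2.80 (0.000309). Met was the 1 listed gene called in Cog, where its mean was at least 2.05-fold higher than in wildtype. The adjusted p of 0.00328 by limma belongs to the fitted log2 change of 1.35. Met was also the 1 listed gene called between the wildtype groups, lower in the Cog background (log2 difference −1.47, adjusted p = 0.00544). Its mean log2 signal was 10.60 in Cog and 9.25 in its wildtype, against 10.73 in the wildtype of the Schmid background. Of 15 proteases and cofactors that process these proteins, 4 were called lower and 1 higher in Schmid, and none in Cog. They included Mmp9 (−2.81, adjusted p = 0.00363), the procollagen C-proteinase enhancer Pcolce (−2.29, 0.00205), the procollagen C-proteinase Bmp1 (−1.84, 0.00161) and Htra1, a serine protease (1.44, 0.0185).

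**Figure D5:**
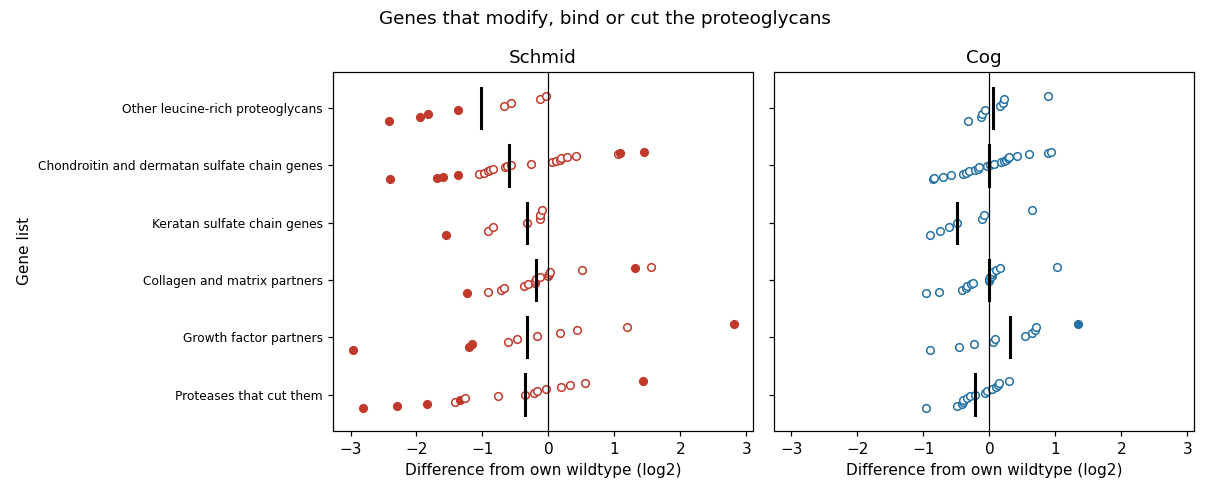
Difference from its own wildtype in log2 signal (horizontal axis) for the genes of the 6 lists (vertical axis), in Schmid (left) and Cog (right). Each point is 1 gene, filled where called, and bars are list medians. In Schmid 22 of 78 points are filled, 17 of them left of 0, and in Cog only Met is.

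Markers of other cell types were also counted in Schmid, where 5.75% of all genes were called lower. Of 10 fibroblast and perichondrium markers 2 were called lower in Schmid and none higher, and their summed log2 signal ran from 17.15 to 18.30 against 18.34 to 19.03 in wildtype. Its marker Dpt never rose well above background, and Col1a1, counted above with the collagens, is 1 of the 2. Of 7 osteoblast probes (Bglap1 and Bglap2 share 1) 1 was called lower (15.58 to 16.29 against 16.90 to 18.82), of 7 endothelial markers 3 (12.86 to 13.25 against 14.45 to 15.08), of 5 red cell markers 3 (14.59 to 16.05 against 17.94 to 19.91), of 5 tendon markers 2 (14.89 to 15.10 against 15.56 to 16.20) and of 5 osteoclast markers 1 (12.95 to 13.43 against 14.03 to 15.43). Of 10 markers of proliferating and resting chondrocytes 2 were called lower (20.56 to 20.72 against 20.90 to 21.23), and of 8 hypertrophic markers 2 (18.73 to 18.96 against 19.16 to 20.08). Pecam1, Tnmd, Col14a1 and Atp6v0d2 never rose well above background. The tendon marker Scx went the other way in Schmid (log2 change 0.95, adjusted p = 0.0286 by limma), under 2-fold and so not called. The other 4 tendon markers had negative changes. The summed Schmid signals lay below wildtype without overlap in all of these lists. Among all single genes 27.7% lay below wildtype without overlap in Schmid. The summed signal of the 10 proteoglycan genes overlapped with wildtype (17.95 to 18.23 against 17.83 to 19.59). A sum is set mostly by the brightest probes of a list, so lists and members are not compared by it. In bulk tissue fewer cells of a type and less RNA per cell cannot be told apart, and the part of other cells in the member values was not tested.

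In Cog, where 2.73% of all genes were called, 1 tendon marker was called higher. There 1 osteoblast and 1 hypertrophic marker were called lower, and no marker of the other 5 lists was called. The summed marker signals overlapped with wildtype for fibroblast and perichondrium (17.62 to 18.53 against 18.22 to 18.71), osteoblast (17.48 to 17.77 against 17.68 to 18.94) and tendon markers (16.08 to 16.28 against 15.97 to 16.47). Endothelial markers did not overlap (13.73 to 14.38 against 14.77 to 14.98), with none of 7 called. The summed signal of the proteoglycan genes ran from 18.06 to 18.54 in Cog, inside its wildtype range of 17.47 to 18.99.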

How the data were processed

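Hypertrophic zone RNA of 12 samples was read on Agilent whole mouse genome arrays (45018 spots, 43379 not controls; 60-base probes). The authors deposited, per array, scanner intensities of spots and local background (Agilent Feature Extraction 9.5.3, probe coordinates in mm7), not normalized between arrays, and a series matrix of log2 values whose normalization its columns do not state. The matrix columns have medians of 9.68 to 9.69 and correlated with the values made here by 0.99987 or more, so it was taken as log2 after quantile normalization and used as an alternative.

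From the intensities, normexp background correction (offset 50) was run on all spots, flagged outlier spots (0.195%) and controls were left out, arrays were quantile normalized, and spots of a probe averaged. Group means of all 12 arrays were fitted in limma 3.58.1 (R 4.3.3) with empirical Bayes, 8 residual degrees of freedom and Benjamini-Hochberg adjustment over 41174 probes. The number of arrays limits the precision. The call procedure was tested on simulated data.

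Where all arrays of a group failed to rise well above background at a probe, its level there is only a bound: the higher of its own signal and of the lowest signal well above background on each array, averaged. Genes named are all members and their probes, up to 4 called genes per list and mutant, and the 3 genes most correlated with each member well above background on all 12 arrays. The members and lists were chosen with earlier results of these data known. Symbols absent from the array were looked up through synonyms in the RefSeq table, and all 10 member symbols matched by accession.

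Same-numbered arrays of Schmid and its wildtype deviated together from their group means over probes well above background on all arrays (r = 0.31, 0.28 and 0.12), less so over all probes (0.19, 0.17 and 0.07), and those of Cog and its wildtype did not (−0.21, 0.15 and −0.20). The labels do not say that a number marks a litter or day. The number was used as a block in an alternative.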

Additional observations from a re-analysis of the deposited data

Results flagged for a closer look

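Effects differed between the mutants by limma's test of the Schmid change minus the Cog change (adjusted p of 0.05 or less) for 10 of the results named, among probes well above background on at least 1 array of each group. None of them was a proteoglycan member. All 10 were list genes named because they were called in a mutant, and the difference contains that same change. Passing was thus favoured by the choice of genes, and the count is no separate result. With the 2-fold limit added, 15 of all 78 listed genes were called for the difference, 1 higher and 14 lower. Among all genes 11.4% were called. The difference was positive for Tlr2 (2.11).

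It was negative for Tgfb3 (−2.73), Chad (−2.10), Chadl (−2.09), Chst12 (−2.09), Pcolce (−1.90), Bmp1 (−1.78), Xylt2 (−1.66), Tsku (−1.58) and B4galt1 (−0.93).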

How the results depend on the processing

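Members called in Schmid (1 of 9) numbered 2 with 75th percentile scaling of normexp or of processed signals, with the slide as a random block and with trends over array rows and probe GC removed (Fmod and Omd), and 2 with the mean over probes (Fmod lower, Dcn higher). They numbered 0 with each mutant and its wildtype fitted alone and with the scan day as a block, an alternative chosen after seeing the data, and 0 to 2 with an array left out, 2 without Cog array 3 (Fmod and Omd). For the difference between the mutants the count of 0 became 1 (Fmod) with array weights, with the slide block and with the replicate block, and ran from 0 to 1 with an array left out, 1 without wildtype array 2 of the Schmid background. Among all probes, calls for this difference were 1805 higher and 2419 lower in the main fit. They were 3148 and 3013 with array weights, 2960 and 2967 with the slide block, and 1777 and 2376 with the replicate block. Over all 41174 probes, calls in Schmid were 2380 higher and 1930 lower in the main fit. They were 2569 and 3455 with 75th percentile scaling of normexp signals, and 2979 and 4029 of processed signals. With the slide block they were 2788 and 2136, and with row and GC trends removed 2238 and 1382. The slide block was fitted with a correlation of −0.12 within slides. As mutant and matching wildtype arrays never shared a slide, a negative value narrows the standard errors of their comparison. Calls gained with the slide block therefore do not show that an effect remains once slide is allowed for. By unadjusted p under 0.05, 2 of 9 members passed in Schmid, 0 in Cog, 1 for the difference and 0 between the wildtypes. The share of all genes under that limit was not counted, so these counts are not set against background. No setting called a member in Cog or between the wildtypes.

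Listed genes called in Cog (1) became 2 with 75th percentile scaling of normexp values and with the slide block, 3 with row trends or row and GC trends removed, 4 with processed signals quantile normalized and 6 with array weights, and ran from 1 to 5 with an array left out (2 without Cog array 3, 5 without wildtype array 1 of the Cog background). Listed genes called in Schmid ran from 17 to 28. Over all 41174 probes, calls in Cog were 644 higher and 308 lower in the main fit. They rose to 1111 and 1002 with array weights, 1014 and 545 with processed signals quantile normalized, and 988 and 654 with the slide block. They fell to 435 and 242 with 75th percentile scaling of normexp values, 497 and 211 with row trends removed, and 553 and 221 with row and GC trends removed.

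The replicate block changed the calls of Fmod between the mutants, of the second Epyc probe in Schmid (adjusted p = 0.0183) and of Col1a1 in Schmid (adjusted p = 0.0602), and no other call of a gene named here. The deviations of 4 of 6 Schmid and wildtype arrays, and of 2 of 6 in the Cog comparison, correlated best with their own number. Scaling to the 75th percentile moved the median of all probes in Schmid to −0.35 (normexp) or −0.40 (processed), and in Cog to 0.01 or 0.43. Relative to it, Fmod in Schmid was −1.18 or −1.48, Omd −0.93 or −1.30, Prelp −0.84 or −1.09 and Epyc −0.81 or −0.85.

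Small changes that reversed were Kera in Schmid (−0.24 and −0.36 with 75th percentile scaling of normexp and processed signals, −0.30 with processed quantile, −0.44 with array weights, −0.14 with row and GC trends removed), Aspn in Schmid (−0.20, −0.047 and −0.10 with normexp 75th percentile, row and GC trends, and scan day), Bgn in Schmid (0.021 with row and GC trends), Lum in Cog (−0.065 and −0.086 with both 75th percentile scalings), and Bgn (0.011) and Fmod (0.20) in Cog with array weights. With an array left out the ranges that crossed 0 were, in Schmid, −0.42 to 0.49 for Kera, −0.10 to 0.58 for Aspn, −0.54 to 0.24 for Lum and −0.33 to 1.11 for Ogn, and in Cog, −0.30 to 0.54 for Omd, −0.56 to 0.071 for Ogn, −0.27 to 0.015 for Bgn, −0.27 to 0.20 for Fmod, −0.77 to 0.21 and −0.69 to 0.091 for the Epyc probes, −0.079 to 0.62 for Lum and −0.030 to 0.75 for Dcn. The cause of these changes was not tested. Signal near background limits Aspn, Kera, Ogn and the dimmer probes of Dcn, Prelp and Bgn.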
